A study of Sus scrofa with 21 samples.

Results

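On the pig blood array, 171 probes for transcripts without a gene name differed by more than 1 on the log2 scale between SLAdd (DD) and Large White (LW) pigs. They were chosen by the measured values themselves. The rule took probes on the sense strand whose only label was a TC consensus sequence or an Ensembl transcript, kept those with a signal well above background on at least 5 of 10 DD or 6 of 11 LW arrays, and then kept those whose mean in the deposited log2 matrix differed between the breeds by more than 1 in either direction. Of 60305 probes on the array, 15005 had such a label, 8314 of these passed the background step, and 171 passed the difference, 74 of them higher and 97 lower in DD pigs. Because the breed difference selected these probes, it is given here as a description with no test.

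The 21 arrays measured RNA from whole blood of 60-day-old pigs that were fed a standard diet ad libitum. The DD group held 10 pigs of 5 litters from the French SLAdd minipig herd, which is kept inbred and is homozygous at the swine leukocyte antigen (SLA) locus, so that it stands for 1 inbred line. The 11 LW pigs, of 6 litters, belonged to a commercial lean breed and served as controls. The sources name no transgene and no treatment other than this diet for either group. Siblings were placed on different chips, and each of the 3 chips held pigs of both breeds.

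A probe of this kind is a 60-base oligonucleotide designed against a known or predicted RNA sequence, and the array's name columns give it no gene symbol. Its description may still name a gene or protein, as it does for 15 members from Ensembl and 32 by a match to a protein of a mammal. A TC identifier names a tentative consensus assembled from overlapping expressed sequence tags, which are short reads of complementary DNA, and such a consensus may come from the end of a gene, a repeat, a pseudogene or a non-coding transcript. An ENSSSCT identifier names a transcript that Ensembl predicted on the pig genome. A hybridisation signal depends on the amount of the transcript and on how well its sequence pairs with the probe, so that a base difference between breeds under the probe and a difference in transcript amount cannot be told apart from the signal alone. Of the members, 139 had a TC and 32 an Ensembl identifier. The array describes 62 of them as unknown. It describes another 43 by a partial match to a protein, with none of a short list of mammals named. Whether other mammals are among these was not checked, and no mammalian gene is named from those matches here.

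Blood markers were present on these arrays. Of 26 probes for 15 marker genes of red cells, T cells, B cells, monocytes, granulocytes and platelets, 19 were well above background on all 21 arrays, whereas 10 of 23 probes for the liver genes ALB and APOA2 were so on no array and the 2 for APOA2 on all. The DD arrays were dimmer on average. Brightness, taken as the 75th percentile of an array's processed signals on the log2 scale, ran from 6.56 to 8.49 in DD and from 7.37 to 8.62 in LW pigs. Over chips 1, 2 and 3 its means were 7.95, 7.55 and 7.09 in DD and 8.02, 8.31 and 8.36 in LW pigs.

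The probe sequences that carry the results below are printed 5′ to 3′ as the scanner files hold them. Their place in a genome was not analysed here. The first set holds 8 of the 10 members with the lowest values in DD pigs relative to LW pigs, among them 4 probes of the Ensembl transcript ENSSSCT00000004659, the first pair of which overlap in the stretch marked by capitals. After them stand TC526355, TC609342, which the array describes as part of ribosomal protein L7a, TC553265, and ENSSSCT00000002305, whose probe is identical to a probe for a T cell receptor delta sequence.
A_72_P580827: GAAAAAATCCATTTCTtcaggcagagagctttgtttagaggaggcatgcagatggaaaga
A_72_P496586: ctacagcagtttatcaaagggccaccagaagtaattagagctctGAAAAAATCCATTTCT
A_72_P257652: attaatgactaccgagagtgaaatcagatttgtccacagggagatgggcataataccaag
A_72_P491491: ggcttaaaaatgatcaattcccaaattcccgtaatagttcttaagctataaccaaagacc
A_72_P434844: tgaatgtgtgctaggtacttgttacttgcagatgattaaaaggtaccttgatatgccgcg
A_72_P385583: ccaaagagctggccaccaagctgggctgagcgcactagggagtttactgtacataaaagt
A_72_P273094: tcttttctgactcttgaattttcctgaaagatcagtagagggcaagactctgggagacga
A_72_P413428: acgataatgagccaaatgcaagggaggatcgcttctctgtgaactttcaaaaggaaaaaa

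The second set holds members that were higher in DD pigs, in the order TC536725, TC528319, TC544506, TC531939 and ENSSSCT00000010832, the last of which the array describes as OAS1, an interferon-induced enzyme that makes the activator of RNase L.
A_72_P066171: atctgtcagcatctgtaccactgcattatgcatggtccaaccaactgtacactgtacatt
A_72_P427894: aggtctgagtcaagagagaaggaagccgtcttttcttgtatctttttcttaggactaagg
A_72_P308563: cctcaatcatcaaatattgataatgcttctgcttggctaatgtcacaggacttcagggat
A_72_P198392: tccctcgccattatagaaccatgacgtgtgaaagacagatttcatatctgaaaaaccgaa
A_72_P444998: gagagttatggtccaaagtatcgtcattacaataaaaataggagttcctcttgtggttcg

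The third set pairs a member with a probe outside the set that shares most of its bases, in capitals, yet had another breed difference. The pairs are the 2 probes of TC579735, which the array describes as part of ribosomal protein L23, and ENSSSCT00000008105 with a probe named E4. The array describes the former, and RefSeq names the accession of the latter, as WFDC2, a secreted protein of the whey acidic protein family. The final sequence is that of TC607644, in which the capitals mark a stretch that is its own reverse complement.
A_72_P306283: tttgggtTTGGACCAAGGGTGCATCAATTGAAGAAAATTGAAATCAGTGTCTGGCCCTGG
A_72_P514668: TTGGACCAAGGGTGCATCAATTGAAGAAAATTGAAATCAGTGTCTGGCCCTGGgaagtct
A_72_P054911: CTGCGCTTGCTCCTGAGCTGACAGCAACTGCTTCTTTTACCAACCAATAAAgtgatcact
A_72_P146751: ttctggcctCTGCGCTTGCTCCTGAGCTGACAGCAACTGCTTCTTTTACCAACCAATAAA
A_72_P315183: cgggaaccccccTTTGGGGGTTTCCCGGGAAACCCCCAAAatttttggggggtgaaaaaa

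Among the 8314 unnamed probes that were well above background, 74 (0.890%) passed the difference upward and 97 (1.17%) downward, and among all 35649 probes of the array that passed the same background step 730 (2.05%) did so in either direction. The rule itself fixes these shares. The upward differences had a median of 1.29 and reached 3.83, while the downward ones had a median of −1.33 and reached −5.55. The median over all 8314 was −0.08. Most members lay near the threshold, since 55 of 74 and 60 of 97 had a size of at most 1.5. Just inside it were TC533634 with 1.00 and TC521991 with −1.01, and just outside it TC625456 with 0.997 and ENSSSCT00000001305 with −0.994.

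The 2 directions differed in signal. Of the 74 probes that were higher in DD pigs, 56 were well above background on all 21 arrays. Of the 97 that were lower, 26 were, and 20 were so on no DD array. Of the higher ones, 1 was so on no LW array. The rule admits a probe that passes the background step in either breed. The mean share of probes well above background was 53.2% on DD and 59.2% on LW arrays. This contrast is therefore in part set by the selection. The values of the breeds did not overlap for 45 of the 171 members, against 55 (0.662%) of the 8314 unnamed probes, which include the members. The 45 were 39 of the lower and 6 of the higher members. As the rule chose large differences of the same values, this excess is in part set by the selection.

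The 4 probes of ENSSSCT00000004659 were the lowest of all. The signal of A_72_P580827 ran from 3.1 to 4.17 with a median of 3.79 in DD pigs and from 8.80 to 9.77 with a median of 9.20 in LW pigs, a mean difference of −5.55. The second probe, A_72_P496586, ran from 3.62 to 4.53 with a median of 4.20 in DD pigs and from 8.28 to 9.17 with a median of 8.74 in LW pigs. For A_72_P257652 the log2 values ran from 2.79 to 4.17 with a median of 3.79 in DD pigs and from 7.35 to 8.56 with a median of 7.91 in LW pigs. The last, A_72_P491491, ran from 2.84 to 4.53 with a median of 3.55 in DD pigs and from 7.16 to 8.39 with a median of 7.65 in LW pigs. All 4 probes were well above background on 11 of 11 LW and 0 of 10 DD arrays, and no DD value came near an LW value.

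Where a breed had no array well above background, its own mean is only an upper limit, and the fold is a bound that sets each DD value at no less than the lowest signal well above background on its array. By this bound the 4 probes were at least 37.2-fold, 22.4-fold, 15.8-fold and 12.4-fold lower in DD pigs. A_72_P491491 shares an accession with a probe named ECHDC1, an enzyme that removes a malformed fatty acid precursor. That probe had means of 4.49 in DD and 10.23 in LW pigs. A further probe of the shared accession, A_72_P530359, was well above background on all arrays and had means of 12.34 and 12.81. Probes that the array ties to the same RNA therefore differed in the size of the breed difference, from −5.74 to −0.46.

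TC609342 was lower in DD pigs on arrays that all measured it. Its log2 value ran from 11.56 to 12.26 with a median of 11.86 in DD pigs and from 14.59 to 15.64 with a median of 14.99 in LW pigs, with all 21 arrays well above background and no overlap between the breeds. The difference of −3.17 was −3.17, −3.42 and −2.82 on chips 1, 2 and 3. Ribosomal protein L7a is a part of the large ribosomal subunit, and the array gives TC609342 as a partial match to its bovine form. Other transcripts with a clear separation had no usable description. TC558835 ran from 5.36 to 6.21 with a median of 5.77 in DD pigs and from 8.00 to 9.22 with a median of 8.48 in LW pigs. TC549775 ran from 5.25 to 6.66 with a median of 5.56 in DD pigs and from 7.35 to 8.68 with a median of 8.41 in LW pigs. In each of these 3 the lowest LW pig was above the highest DD pig.

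Among the remaining strongly lower members, TC526355 ran from 3.69 to 4.73 with a median of 4.19 in DD pigs and from 4.52 to 8.83 with a median of 8.03 in LW pigs. The lowest LW value, 4.52 in the pig LW_22, lay within the DD range, and the next lowest LW pig had 7.29. TC553265 ran from 3.32 to 4.48 with a median of 3.75 in DD pigs and from 4.74 to 8.26 with a median of 7.21 in LW pigs. No DD array held either of them well above background, and by the bound they were at least 11.3-fold and 5.96-fold lower in DD pigs. TTC21A, a tetratricopeptide protein of the cilium, and LAMB3, the beta 3 chain of laminin, are the array's names for ENSSSCT00000012331 and ENSSSCT00000017012. Probe A_72_P356138 for the first ran from 4.26 to 5.50 with a median of 4.90 in DD pigs and from 5.93 to 8.20 with a median of 7.18 in LW pigs. A second probe for it, A_72_P083766, had a difference of −1.46. The LAMB3 probe ran from 3.27 to 5.28 with a median of 4.72 in DD pigs and from 5.39 to 8.01 with a median of 6.74 in LW pigs. These member probes were lower in every DD pig than in any LW pig. A further probe of the TTC21A transcript, A_72_P252302, had a difference of −0.35, and its breeds overlapped. It was well above background on no DD array and on 3 LW arrays.

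The member with the largest upward difference, TC536725, had a signal that ran from 11.81 to 12.98 with a median of 12.38 in DD pigs and from 5.46 to 12.62 with a median of 6.75 in LW pigs. All DD pigs lay close together, whereas the LW pigs fell into 2 sets with a gap of 4.55 between them. The higher set was LW_14 at 11.30, LW_05 at 11.52, LW_24 at 11.66, LW_22 at 12.03 and LW_15 at 12.62, inside or close to the DD range. The lower set was LW_09 and LW_12 at 5.50 and 5.46, LW_04 at 5.70, LW_02 at 5.74, LW_07 at 5.76 and LW_18 at 6.75. The siblings LW_05 and LW_15 were both in the higher set, as were LW_14 and LW_22. The siblings LW_04 and LW_09 were both in the lower set, as were LW_07 and LW_18, and only LW_12 and LW_24 were split. The mean difference was 3.83.

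TC528319 was split within LW. Its signal ran from 7.30 to 8.61 with a median of 8.11 in DD pigs and from 3.47 to 7.25 with a median of 6.29 in LW pigs, and all DD pigs were above all LW pigs, though the highest LW pig lay close to the lowest DD pig. Within LW, 5 pigs lay between 3.47 and 4.25 and the other 6 between 6.29 and 7.25. Only 6 of 11 LW arrays had this probe well above background, against 10 of 10 DD arrays. Here the siblings LW_05 with 6.96 and LW_15 with 4.25 were split, and so were LW_07 with 6.33 and LW_18 with 3.71. TC544506 ran from 8.34 to 10.20 with a median of 9.31 in DD pigs and from 6.38 to 8.66 with a median of 6.87 in LW pigs. Its highest LW values were those of the siblings LW_15 and LW_05, 8.66 and 8.26.

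A further 4 transcripts without a name had differences near 2. TC521994 ran from 5.06 to 8.71 with a median of 6.79 in DD pigs and from 2.61 to 8.25 with a median of 3.96 in LW pigs. TC611190 ran from 8.84 to 11.57 with a median of 9.95 in DD pigs and from 6.06 to 9.51 with a median of 8.11 in LW pigs. TC531939 ran from 8.34 to 10.28 with a median of 8.98 in DD pigs and from 6.24 to 7.72 with a median of 7.20 in LW pigs, with no overlap. In TC521994 only LW_22 and LW_14, at 8.25 and 6.13, lay above the lowest DD pig. TC555885 ran from 6.28 to 8.64 with a median of 7.65 in DD pigs and from 5.34 to 6.61 with a median of 5.77 in LW pigs. The breeds overlapped slightly in TC555885, where 9 of 10 DD pigs lay above all LW pigs.

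Another 3 members were probes of ENSSSCT00000001888. The RefSeq table names its accession RSPH9, a subunit of the radial spoke in motile cilia. Probe A_72_P504757 ran from 10.72 to 12.50 with a median of 11.64 in DD pigs and from 8.77 to 11.07 with a median of 9.84 in LW pigs. The others, A_72_P606018 and A_72_P071431, have the same 60 bases, and their differences were 1.53 and 1.44. In all 3 the difference was largest on chip 3. For A_72_P606018 it was 1.04, 0.70 and 3.40 over chips 1, 2 and 3.

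Some members could be placed in a gene class by the array's description or by an identical named probe. In the interferon-induced class there were 3, all higher in DD pigs. The OAS1 probe ran from 11.49 to 13.44 with a median of 12.29 in DD pigs and from 7.90 to 12.20 with a median of 11.10 in LW pigs. Its LW values were spread widely, with LW_02 and LW_04 at 7.90 and 8.56, and the DD values lay closer together. A probe with the name OAS1 that shares an accession with it had means of 10.39 in DD and 8.43 in LW pigs. RTP4, a receptor transporter, is the name of ENSSSCT00000012919, which ran from 7.63 to 10.52 with a median of 8.89 in DD pigs and from 6.87 to 8.43 with a median of 7.23 in LW pigs. TC567770, described as the exonuclease ISG20, ran from 11.18 to 14.27 with a median of 12.41 in DD pigs and from 10.33 to 12.57 with a median of 11.53 in LW pigs, and the ISG20 probe with the same 60 bases had a difference of 1.05. A second probe tied to the OAS1 transcript by accession, which the array names CYP24A1, had a difference of 0.24. The breeds overlapped in OAS1, RTP4 and ISG20.

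The antigen receptor members were all lower in DD pigs. ENSSSCT00000002305 ran from 5.94 to 6.89 with a median of 6.65 in DD pigs and from 7.93 to 9.84 with a median of 8.99 in LW pigs, with no overlap. The T cell receptor delta probe with the same 60 bases had a difference of −2.31. T cell receptor delta chains form the gamma delta T cell receptor, which many pig blood T cells carry. TC605942, described as an immunoglobulin lambda variable region, ran from 3.08 to 6.34 with a median of 4.59 in DD pigs and from 5.15 to 8.27 with a median of 7.23 in LW pigs, and its highest LW values, between 7.23 and 8.27, were those of LW_05, LW_09, LW_07, LW_02, LW_12 and LW_04. These pigs were all on chips 1 and 2. TC605942 differed between chips (limma adjusted p = 0.019), with a chip 3 minus chip 1 difference of −1.59. ENSSSCT00000011002, described as the immunoglobulin lambda constant region, ran from 7.12 to 10.64 with a median of 10.05 in DD pigs and from 8.90 to 12.18 with a median of 10.92 in LW pigs. Its lowest DD pig, DD_16, lay far below the next, at 8.81. Its difference was −1.09, and probes named IGLL1 and TC534584, which share 22 and 23 bases with it, had −0.65 and −0.28. The 2 immunoglobulin members may share RNA with other members of the same gene families. In bulk blood, fewer cells of a type and less RNA per cell cannot be told apart. The probes for CD79A, a B cell gene, had breed differences of −0.01 and 0.01, and those for CD3E, a T cell gene, −0.49 and −0.36. The other T cell probes, for CD4 and CD8A, ran from −1.13 to −0.36. Their part in these results was not tested.

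Of 4 members grouped here as retroviral or transposon sequences, 3 were higher in DD pigs, 2 of them placed in this group by judgement. ENSSSCT00000014687 and ENSSSCT00000008541, both described only as a protease, agreed in 56 of 59 aligned bases, with the substitutions T29C, A36C and A52T counted from the 5′ end of A_72_P414093. The first ran from 9.17 to 11.70 with a median of 10.66 in DD pigs and from 8.06 to 11.05 with a median of 9.08 in LW pigs. The second ran from 8.29 to 11.37 with a median of 9.81 in DD pigs and from 7.27 to 9.68 with a median of 8.56 in LW pigs. Because of this likeness the 2 probes may measure the same RNAs. TC584016, described as a pig endonuclease and reverse transcriptase, ran from 11.28 to 13.81 with a median of 12.98 in DD pigs and from 10.23 to 13.63 with a median of 11.43 in LW pigs. Its difference of 1.05 split into −0.08, 1.35 and 1.97 over chips 1, 2 and 3.

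The member TC607259, described as an envelope protein of a retrovirus, rested on 1 animal. The pig LW_18 had a log2 value of 15.41, the other 10 LW pigs lay between 4.73 and 5.74, and the DD pigs between 3.83 and 5.28. The gap below LW_18 was 9.67. Its sibling LW_07 had the lowest LW value. The difference of −1.53 became −0.61 without LW_18, which is under the threshold. The mitochondrial member TC562664, described as the respiratory chain subunit ND4, ran from 7.41 to 9.38 with a median of 8.40 in DD pigs and from 5.31 to 7.73 with a median of 6.59 in LW pigs, and 7 of 10 DD pigs were above all LW pigs.

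Across the members, LW_07 was the highest LW pig in 33, LW_22 in 31, LW_15 in 23 and LW_24 in 20. LW_07 was also the lowest LW pig in 34, LW_12 in 24 and LW_24 in 23. The array of LW_07 was the dimmest of the LW arrays, with a brightness of 7.37. These counts have no share of the 8314 unnamed probes beside them. Among the members that LW_24 led, 5 are given here that were picked after their values were seen. It was the highest in TC561113 with 10.06, in TC579735 with 8.26, in TC534734 with 9.08, in TC531498 with 10.40 and in ENSSSCT00000007005, which the array names IGSF8, with 11.55. In TC561113 and TC579735 the next LW pig had 6.56 and 5.19. Its sibling LW_12 had 5.81 and 4.79 there. With each of the 21 pigs left out in turn, 45 of the 74 higher and 71 of the 97 lower members kept a size above 1 in every case. In the other 29 and 26 at least 1 pig took it to 1 or below.

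Sequence shared between probes allowed their values to be compared. 22 members shared at least 20 bases with another probe, and no member had the reverse complement of such a stretch in another probe. In 5 pairs, with ISG20, IGSF8, AGTPBP1, RSPH9 and T cell receptor delta, the sequences were identical, and the breed differences within a pair lay 0.025 to 0.246 apart. AGTPBP1, which trims glutamate chains from tubulin, was the farthest, with 1.56 and 1.32. An identical pair repeats the same sequence, so it shows only how well a signal repeats. Both probes of the RSPH9 pair were members.

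Pairs that were alike but not identical could differ far more. Within TC579735, A_72_P306283 and A_72_P514668 share 53 bases and are shifted against each other by 7. Their differences were −1.22 and 0.25, of which the first probe was well above background on 1 of 10 DD and 7 of 11 LW arrays and the second on 9 and 11.

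The WFDC2 pair shares 51 bases with a shift of 9, and the member runs past the AATAAA at which the named probe ends. The member had a difference of 1.09 and the named probe, with means of 16.75 and 16.30, 0.45. Another probe named E4 had 1.27. GNPAT, which starts the synthesis of ether lipids, showed −1.33 and −1.32 in overlapping probes and between −0.54 and −0.46 in the 4 others.

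In all, 28 members had another probe of the same transcript or accession. Of 21 such probes that were no members and were well above background by the same step, 19 had a breed difference of the same sign, 6 of them past 1, and 0 were past 1 in the opposite direction. ENSSSCT00000007686, whose probe A_72_P707411 agrees in 58 of 60 bases with a probe for ankyrin 1, the anchor of the red cell membrane skeleton, had 3 member probes with 1.26, 1.20 and 1.04. Its other probes had smaller positive differences, 0.43 for A_72_P725233 and 0.51 for A_72_P773552. TC521114 had 2 member probes with −1.54 and −1.51. TC607644, with its stretch that is its own reverse complement, ran from 4.82 to 10.13 with a median of 5.83 in DD pigs and from 3.90 to 5.65 with a median of 5.05 in LW pigs. Its highest DD pig, DD_11 at 10.13, was far above the next, DD_21 at 7.72.

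The rule did not use the spread within a breed as such, but a few far pigs can carry a breed mean past the threshold. The spread, and the shares of members by litter, animal, brightness and red cell score given below, are therefore in part set by how the members were chosen. The members' median SD was 0.70 in DD and 0.76 in LW pigs for the higher and 0.46 and 0.49 for the lower members, against 0.44 and 0.36 over the 8314 unnamed probes. The SD was larger in LW than in DD pigs for 43.2% of the higher and 54.6% of the lower members, and for 28.3% of the 8314. A gap of more than 2 between neighbouring LW pigs was present in 9 members, against 0.770% of the unnamed probes, and between neighbouring DD pigs in 6 members, against 0.541%. This limit was set after the values were seen.

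Whether litters of a breed differed was tested with limma across 45228 probes, with chip in the model. Of the 171 members, 0 differed between LW litters at an adjusted p below 0.05, and 0.00221% of all probes did. Without adjustment, 26 members had a p below 0.05, which is 15.2% of them against 1.97% of all probes. The lowest was TC536725 (limma adjusted p = 0.324), followed by TC549765 (limma adjusted p = 0.324), TC553265, TC534734 and TC528319. TC549765 was lower in DD pigs and ran from 5.29 to 6.69 with a median of 5.88 in DD pigs and from 5.88 to 9.29 with a median of 8.21 in LW pigs. A probe of TC568863 shares an accession with TC549765 and was well above background on all arrays. Its means were 7.88 in DD and 7.97 in LW pigs. In TC549765 only LW_15 at 5.88, LW_05 at 6.00 and LW_22 at 6.31 lay within the DD range, the first 2 being siblings. In TC534734 the same siblings were the lowest LW pigs, with 4.11 and 4.64, and the next were the siblings LW_22 and LW_14 with 5.21 and 5.36. In TC553265 the siblings LW_22 and LW_14 were the lowest, with 4.74 and 4.75.

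Between DD litters 0 members passed the adjusted threshold, as did 0.00% of all probes. Without adjustment 16 members, or 9.36%, had a p below 0.05, against 3.80% of all probes. The lowest were TC580665 (limma adjusted p = 0.157), TC535570, TC529750, TC536739 and TC557622. In TC580665 the DD siblings DD_13 and DD_23 had 4.47 and 4.74, DD_16 and DD_19 had 7.27 and 7.37, and DD_01 and DD_10 had 7.43 and 6.85. The other pairs lay farther apart, with 5.62 and 4.80 in DD_08 and DD_21 and 7.37 and 5.78 in DD_06 and DD_11, while the LW pigs ran only from 6.43 to 7.60. TC529750 was split in both breeds. Most DD pigs lay between 3.73 and 6.30, but the siblings DD_01 and DD_10 had 8.75 and 9.30 and DD_23 had 8.89, unlike its sibling DD_13 with 5.36. Most LW pigs lay between 3.28 and 4.55, and the siblings LW_07 and LW_18 had 6.99 and 8.21. The litter fits left 8 residual degrees of freedom, and the difference between DD and LW pigs in litter effects was not tested.

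A set of members was led by the same 2 pigs. DD_06 was the highest DD pig and LW_22 the highest LW pig in 8 members, against 1.44% of the unnamed probes. They included TC521994, TC568929, RTP4, TC567601 and ISG20, all higher in DD pigs, and TC565898 and TC526409, both lower. These pigs were picked after the values were seen. DD_06 had the brightest DD array, at 8.49, and LW_22 had 8.58, next to LW_05, the brightest LW array, at 8.62. In the limma fit with brightness described below, the slopes of these named members were all positive, from 0.31 to 1.36. The limma adjusted p was 0.0085 for TC567601, 0.0020 for TC565898 and between 0.062 and 0.435 for the others. The part of brightness in this set was not tested. RTP4 had 10.52 in DD_06 and 8.43 in LW_22, and ISG20 14.27 and 12.57. The unnamed TC568929 had 12.03 in DD_06, where the next DD pig had 9.93, and 9.06 in LW_22. OAS1 was highest in DD_23 and then DD_06 among DD pigs, with 13.44 and 13.33, and in LW_22 among LW pigs with 12.20.

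Chip was tested with breed in the model. Of the 171 members, 22 (12.9%) differed between chips at a limma adjusted p below 0.05, against 30.9% of all 45228 probes, and 39 without adjustment, or 22.8% against 43.5%. The called members were 19 higher and 3 lower members. The lowest adjusted p was that of TC621773 (limma adjusted p = 8.18e-05), which was 2.07 higher on chip 3 than on chip 1. It ran from 9.16 to 13.40 with a median of 10.63 in DD pigs and from 7.73 to 11.56 with a median of 9.98 in LW pigs, and the DD pigs of chip 3, DD_19, DD_23 and DD_21, had 12.86, 12.97 and 13.40. TC627259, ENSSSCT00000008541, TC578231 and TC612971 followed.

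The breed difference itself did not pass a test of variation between chips in any member. The interaction of breed and chip was called in 0 of 171 members and 0.00% of all probes, and without adjustment in 26 members, or 15.2%, against 15.0%. The lowest were TC599471 (limma adjusted p = 0.325), TC580374, TC529410, LAMB3 and A_72_P606018 of RSPH9. All 97 lower members were lower on each of the 3 chips, 43 of them by more than 1 on each. Of the 74 higher members, 70 were higher on each chip, 26 by more than 1. The rule used the breed means over these same chips, so this agreement is in part set by the selection. These counts per chip have no share of the 8314 unnamed probes beside them. The median difference of the higher members was 1.11, 1.31 and 1.66 on chips 1, 2 and 3, and that of the lower members −1.13, −1.26 and −1.82. Over all 8314 unnamed probes these medians were 0.00731, 0.0151 and −0.31.

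Many higher members moved with array brightness inside a breed. With breed and chip in the limma model and brightness added, an alternative chosen after seeing the data, 30 of 74 higher members (40.5%) fell with brightness at an adjusted p below 0.05, against 14.3% of all probes, and 3 rose, against 14.9%. Of the 97 lower members 2 fell and 10 rose. The steepest falls were those of TC555894, TC620664 and TC597053, with slopes of −1.75, −1.60 and −1.59 log2 units per log2 unit of brightness (limma adjusted p = 4.43e-06, 6.13e-06 and 8.99e-05). With brightness in the fit their breed differences of 1.11, 1.08 and 1.03 were −0.08, −0.04 and −0.10. The 30 members had a median of 0.32 in that fit, and 2 of them stayed past 1, TC555885 and A_72_P504757 of RSPH9. TC584016, the reverse transcriptase, went from 1.05 to 0.0317. As brightness also differs between the breeds, its part in the breed difference was not tested.

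Of the 45 members whose breeds did not overlap, 40 kept a size above 1 in that fit. In all, 37 of 74 higher and 63 of 97 lower members did so. TC531939 rose with brightness, and its difference of 1.95 was 2.39 there. The 4 probes of ENSSSCT00000004659 had −5.50, −4.57, −4.30 and −4.11, and TC609342 had −3.03.

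A red cell score was taken as the mean log2 deviation from the mean over all arrays of the 4 probes for HBB, the beta chain of haemoglobin, ALAS2, the first enzyme of heme synthesis in red cells, and AHSP, which stabilises free alpha haemoglobin. All of these markers were well above background on all arrays. They did not differ the same way between the breeds, with 0.26 for HBB and 0.77 for ALAS2 but −0.24 and −0.26 for the AHSP probes, DD minus LW. The score ran from −0.73 to 0.57 in DD and from −0.93 to 0.50 in LW pigs, with medians of 0.07 and −0.13. With breed and chip in the model, again added after seeing the data, 14 higher members (18.9%) rose with the score in limma, against 3.37% of all probes, and 1 fell, against 0.988%. Of the lower members 1 rose and 3 fell. All 14 that rose were among the 30 that fell with brightness, so that the tests do not separate the 2 measures. They included both protease transcripts, A_72_P724068 and A_72_P707411 of the ankyrin 1 transcript, A_72_P504757 of RSPH9, TC621773, TC537806 and TC526711. With the score in the fit their breed differences ran from 0.84 to 1.79, with 5 of 14 above 1. The part of red cells in these breed differences was not tested.

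Base composition and poly(A) signals were compared as a description. The median GC content was 40.0% in the members and in the 8314 unnamed probes that include them, and ran from 35% to 60% in the members. The poly(A) signal AATAAA was in 11.7% of members and 12.0% of the 8314 unnamed probes, and its reverse complement TTTATT in 3.51% and 4.82%. The variant ATTAAA was in 7.02% and 4.43%, and its reverse complement TTTAAT in 2.34% and 3.43%. The motifs were searched as letters and may overlap each other. AATAAA was in 12 of the 74 higher and 8 of the 97 lower members. Among the printed probes it lies in those for OAS1 and WFDC2. The members spread over 161 transcripts, 6 of which held more than 1 member probe.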

How the data were processed

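RNA from the blood of 10 DD and 11 LW pigs was labelled with Cy3 and hybridised to 1-colour arrays of 60-base probes, on 3 chips. The authors deposited, for each array, scanner intensity values from Agilent Feature Extraction 10.7.3.1 (submitters' processing notes), and 1 matrix of log2 values that were background-corrected with normexp and quantile normalized across arrays. The authors left out arrays that stood apart and noted a technical bias on chip 3. The authors mapped the probes to the Sscrofa11.1 pig genome to update their annotation. Those positions and names were not used here, and unnamed means unnamed in the scanner files. All 21 columns of the matrix were matched to samples by name, and the detection flag came from the scanner files. The number of arrays limits the precision.

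The members and lists were chosen with earlier results of these data known. Tests used limma 3.58.1 with statmod 1.5.0 in R 4.3.3, after removal of the dimmest 25% of probes, on 45228 probes with Benjamini-Hochberg adjustment at 0.05. Chip and its interaction with breed were tested with breed and chip fixed and sow as a random block (consensus correlation −0.11), and litters with chip and litter fixed. The fits were tested on simulated data with 200 changed probes a term. Of these, 200 were recovered for chip, 200 for the interaction, 190 for LW litters and 188 for DD litters. In the same order, 27, 10, 4 and 11 unchanged probes were called. Whether the fits would find litter or interaction differences of the size seen in the members was not tested. Brightness and red cell score were added as covariates after seeing the data. Counting, sequence comparison and joins used Python 3.11.15 with pandas 2.3.3 and numpy 2.4.6.

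The probes named are the 10 members with the highest and the 10 with the lowest difference, members in the chosen gene classes, members that share a transcript or sequence, the 5 with the lowest p of each test, and those next to the threshold. Others were named after their values were seen. Classes came from the array's descriptions or an identical named probe, except that placing the proteases among the retroviral sequences was a judgement. Alternatives were other values, thresholds, filters and covariates, and leaving out each chip or animal. Some members are withheld and are not reported here by name or sequence, though the counts include them.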

Additional observations from a re-analysis of the deposited data

Results flagged for a closer look

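The DD values of the 61 named members were examined for a lowest or highest pig far from the others, by Dixon's criterion for groups of 10, which chance meets in about 1 in 20 groups. LW, with 11 pigs, was not examined. A far value was present in 4 of them. In ENSSSCT00000011002, the immunoglobulin lambda constant region, DD_16 had 7.12 on the log2 scale, and the next lowest DD pig had 8.81. In TC579735, DD_08 had 5.54 and the next highest 4.10. In ENSSSCT00000017012, described as LAMB3, DD_21 had 3.27 and the next lowest 4.42. In TC549775, DD_23 had 6.66 and the next highest 5.76.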

How the results depend on the processing

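The number of members, 171, depended on the values and the threshold. A threshold of 1.5 left 56. The processed signal scaled to the 75th percentile of each array gave 423, of which 238 were higher and 185 lower in DD pigs, and 169 members were among them, against 74 higher and 97 lower in the deposited matrix. Normexp with an offset of 50 gave 75, 41 higher and 34 lower, all of them members. The median difference of all probes well above background was −0.10 in the deposited matrix, −0.05 with the first scaling and −0.06 with the second. Without chip 1 the count was 509, and with each animal left out in turn it ran from 144 to 271. The count was 271 without DD_06 and 259 without LW_07. The cause was not tested. Re-computed values, the stricter background step, chip as a fixed effect, leaving out chip 2 or chip 3, and brightness or red cell score in the fit kept the count within 1.5 times, although with brightness only 100 of 159 were members. Litter and interaction counts were 0 in every alternative, and the chip count ran from 20 to 29. Of 549 values of the 61 members that the naming rule took, 512 stayed within the spread between pigs, 37 moved and none changed sign. Outside these 61, TC555894, TC620664, TC597053 and TC532584 changed sign with brightness in the fit, to −0.08, −0.04, −0.10 and −0.05. No paired analysis was possible because animal numbers are not shared between the breeds. The match of translated probes to proteins was not run. Signals not well above background give only a bound.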
